A study of Mus musculus with 4 samples.

Results

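Blockade of Ang2 during neuroinflammation was examined in 2 single-cell libraries from the spinal cords (SCs) of mice with experimental autoimmune encephalomyelitis (EAE), 1 from mice given an Ang2-blocking antibody (Ang2 Ab) and 1 from mice given the isotype control mIgG1. Droplet barcodes with at least 2000 unique molecular identifiers (UMIs, which let each captured transcript be counted once) and under 10% mitochondrial UMIs were assigned to 3 lineages by summed marker UMIs. Endothelial cells (ECs) had at least 5 UMIs of Cldn5, Cdh5, Egfl7, and Esam and at most 2 of the leukocyte genes Ptprc, Laptm5, and Coro1a. Myeloid cells had at least 10 UMIs of Tyrobp, Fcer1g, and Ctss and at most 2 of the endothelial genes, and T cells had at least 3 UMIs of Cd3e, Cd3g, and Lat and at most 2 of Tyrobp. This gave 12758 cells, 6016 from mIgG1 and 6742 from Ang2 Ab, of the 23890 cells that met the same definitions in the 4 libraries of the series.

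Ang2 is released by ECs and binds the receptor Tie2, where it can act against the vessel-stabilizing ligand Ang1, and it is known for loosening EC junctions in inflamed tissue. EAE is a T cell–driven model of multiple sclerosis in which T cells and monocytes enter the SC across an activated endothelium. Cells under stress make heat shock chaperones, which refold damaged proteins, and early response transcription factors such as FOS. Interferons induce antiviral genes and the MHC class I genes that display peptides to CD8 T cells, and these programs have been followed in many cell types of the inflamed central nervous system.

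Both groups were wild-type C57Bl/6JOlaHsd females, 15 weeks of age by the labels, immunized with myelin oligodendrocyte glycoprotein peptide in complete Freund's adjuvant with pertussis toxin. The mouse antibodies, against mouse Ang2 or of the mIgG1 isotype, were given prophylactically from the day of immunization, and SCs were taken at 14 days post immunization (dpi). The other 2 libraries came from C57Bl/6JCrl EAE mice of 12 to 14 weeks at 12 dpi that carried 1 transgene (Ctrl) or both VE-cadherin-tTA and Tet-OS-Ang2 (EC-Ang2, which overexpress Ang2 in ECs), with a lower dose of pertussis toxin. In each library, CD45+ leukocytes and CD31+ ECs had been sorted in equal numbers, so that their ratio was set by the sort. How many mice were pooled is not given in the sources used here. With 1 library per condition, no difference could be tested, and the exact 95% intervals given below reflect counting error alone and say nothing of how mice of 1 group vary.

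The mIgG1 and Ang2 Ab tables summed to 66631583 and 57954609 UMIs, and those of Ctrl and EC-Ang2 to 52084739 and 52796061. Of 6995 mIgG1 and 7488 Ang2 Ab barcodes kept, 3035 (43.4%, exact binomial interval 42.2% to 44.6%) and 3594 (48.0%, 46.9% to 49.1%) were ECs, 2646 and 2870 were myeloid cells, and 340 and 284 were T cells. The median UMIs per cell were 4828 and 3687 in ECs, 7519 and 5869 in myeloid cells, and 3885 and 4198 in T cells. The 14 endothelial markers summed to 30695 and 29480 UMIs per 1000000 (CPM) in ECs and to 686 and 759 CPM in myeloid cells. The 10 T cell markers analysed, of 12 listed, summed to 7719 and 7460 CPM in T cells and 188 and 176 CPM in myeloid cells. The 12 myeloid markers were less alike, at 49195 and 34962 CPM in myeloid cells, with 2 of 12 above their mIgG1 level in Ang2 Ab. Each of these lists includes the genes that define its lineage, and the myeloid definition also limits the endothelial genes. These sums were therefore partly set by the definitions and are no separate support for them. RNA from broken cells in every droplet (free RNA), estimated from genes that a lineage should lack, made up 6.55% and 6.74% of the UMIs in ECs, 3.37% and 3.62% in myeloid cells, and 6.49% and 6.29% in T cells. The 2 libraries shared 47 cell barcodes, within the 40 to 58 of the 6 pairs of libraries.

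Within ECs, 670 mIgG1 and 656 Ang2 Ab cells had at least 2 UMIs of the arterial genes Bmx, Sema3g, Stmn2, and Gkn3, and 1660 and 1681 of the rest had at least 3 of the venous genes Vwf, Slc38a5, Nr2f2, and Selp. The remaining ECs numbered 705 in mIgG1 (23.2%, 21.7% to 24.8%) and 1257 in Ang2 Ab (35.0%, 33.4% to 36.6%), so that the make-up of the ECs differed between the libraries, as did the depth on which these UMI thresholds depend. Among myeloid cells, 601 and 631 had microglial UMIs (Tmem119, P2ry12, Sparc, Siglech, and Gpr34). The 9 microglial markers summed to 1304 and 1674 CPM in myeloid cells, with all 9 above their mIgG1 level in Ang2 Ab. In ECs the same markers summed to 2414 and 2001 CPM, so that this sum is not particular to microglia. The part of EC RNA in the microglial UMIs of myeloid cells was not tested, here or in the microglial values below. Cells with at least 20 UMIs of the neutrophil genes S100a8 and S100a9 made up 2.19% (1.67% to 2.82%) in mIgG1 and 4.84% (4.09% to 5.69%) in Ang2 Ab. The part of these shifts in the results below was not tested. Values within the subsets are given for some genes and lists only, so that a lineage median need not hold in each subset.

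A level is the sum of a gene's UMIs across all cells of a lineage in 1 library, in CPM, and ratios are log2 of Ang2 Ab over mIgG1. A gene with at least 100 UMIs in the pair was called higher or lower when its ratio passed 1.5-fold, a rule of size that is no test. In ECs, 276 of 10506 genes (2.63%) were higher and 294 (2.80%) lower in Ang2 Ab. In myeloid cells, 548 of 9596 (5.71%) were higher and 177 (1.84%) lower, and in T cells 122 of 3649 (3.34%) were higher and 161 (4.41%) lower. Counts of list members given below are to be read beside these shares. In myeloid cells the higher genes far outnumbered the lower ones. In ECs and T cells the lower genes were slightly more, but this turned with the processing: ECs had 300 higher and 265 lower with a minimum of 4000 UMIs per barcode, 219 and 189 with each cell thinned to 2000 UMIs, and 265 and 213 without cycling cells, and T cells had 167 and 112 by the mean of each cell's CPM, 46 and 38 when thinned, 113 and 110 without the highest doublet scores, and 86 and 80 without cells that had endothelial UMIs. As a measure of how far control libraries of EAE mice can lie apart, Ctrl and mIgG1 differed past 1.5-fold in either direction in 10.6% of 10543 genes in ECs, 27.7% of 9688 in myeloid cells, and 14.0% of 3305 in T cells, compared with 5.43%, 7.56%, and 7.76% for Ang2 Ab and mIgG1. Those 2 control libraries differ in substrain, age, day, dose of pertussis toxin, transgene, and antibody. Of myeloid cells, 51.6% were microglial in Ctrl and 22.7% in mIgG1. Neutrophils made up 14.1% in Ctrl and 16.4% in EC-Ang2, compared with 2.19% in mIgG1 and 4.84% in Ang2 Ab. The part of this make-up in the myeloid share, and in myeloid ranks among the 4 libraries below, was not tested. The median ratio over all genes was 0.04 in ECs, 0.06 in myeloid cells, and 0.00 in T cells.

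Changes shared by all 3 lineages were few. Of 3461 genes with 100 UMIs in each lineage, 5 (0.144%) were higher in all 3, namely Erdr1, Hbegf, Mgp, Slfn1, and AA467197, and 4 (0.116%) were lower in all 3, namely Apoe, Lyz2, 8430408G22Rik, and Nrgn. Erdr1, a gene of the pseudoautosomal region whose reads can be split among copies, was at 38.7 and 92.4 CPM in mIgG1 and Ang2 Ab, and 31.8 and 21.3 in Ctrl and EC-Ang2 in ECs (log2 ratio 1.26, 1.13 to 1.38). In myeloid cells it was at 25.2 and 64.2 CPM in mIgG1 and Ang2 Ab, and 33.0 and 7.86 in Ctrl and EC-Ang2 (1.35, 1.2 to 1.49), and in T cells at 45.4 and 127 CPM in mIgG1 and Ang2 Ab, and 57.0 and 23.4 in Ctrl and EC-Ang2 (1.49, 1.1 to 1.89). For Erdr1, Ang2 Ab was thus the highest of the 4 libraries in each lineage, clear of the other 3.

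Hbegf, which encodes a membrane-bound ligand of the EGF receptor, was at 62.9 and 126 CPM in mIgG1 and Ang2 Ab, and 107 and 129 in Ctrl and EC-Ang2 in ECs (1.0, 0.90 to 1.1). In myeloid cells it was at 9.48 and 40.2 CPM in mIgG1 and Ang2 Ab, and 44.6 and 30.8 in Ctrl and EC-Ang2 (2.08, 1.86 to 2.31), and in T cells at 31.4 and 54.6 CPM in mIgG1 and Ang2 Ab (0.80, 0.28 to 1.33). In ECs and myeloid cells mIgG1 was the lowest library for Hbegf, with Ang2 Ab inside the range of the other pair. Mgp, an inhibitor of BMP signaling and of calcification, rose in ECs from 583 to 1100.0 CPM (0.91, 0.88 to 0.95), where free RNA accounted for 3.35% and 2.60% of its level. Its level in myeloid cells (14.2 and 27.8 CPM, log2 ratio 0.97) was 70.9% and 55.4% free RNA, and in T cells (41.9 and 95.9 CPM, 1.19) 46.2% and 27.8%.

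Slfn1 and AA467197 were mainly transcripts of leukocytes. Slfn1, of the Schlafen family of interferon-inducible regulators of immune cell growth, was at 40.6 and 91.7 CPM in mIgG1 and Ang2 Ab, and 140.2 and 163 in Ctrl and EC-Ang2 in myeloid cells (1.18, 1.06 to 1.29) and rose in T cells from 48.9 to 87.5 CPM (0.84, 0.43 to 1.26), whereas its level in ECs (1.43 and 6.29 CPM) was no higher than free RNA in mIgG1 (134% and 61.9% of the level). AA467197, also known as Nmes1, was at 1408 and 3105 CPM in mIgG1 and Ang2 Ab, and 2834 and 3786 in Ctrl and EC-Ang2 in myeloid cells (1.14, 1.12 to 1.16) and at 449 and 1047 CPM in mIgG1 and Ang2 Ab, and 1000.3 and 903 in Ctrl and EC-Ang2 in T cells (1.22, 1.1 to 1.35). In both leukocyte lineages the mIgG1 library was the lowest of the 4 for Slfn1 and AA467197. AA467197 fell short of 1.5-fold in ECs once barcodes with the highest Scrublet doublet scores were removed (0.51), and its EC level was 53.1% and 60.7% free RNA.

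Promoters were searched for a few factor motifs, because these genes moved together. The 250 bases before the start of the 2 leukocyte genes are shown, from RefSeq on GRCm38.p6, 5′ to 3′ in the direction of the gene, with matches in capitals: an NF-kB motif in Slfn1 that begins 43 bases before the start and an AP-1 motif in AA467197 that begins 73 bases before it.
Slfn1 (chr11:83116570-83116819, plus strand): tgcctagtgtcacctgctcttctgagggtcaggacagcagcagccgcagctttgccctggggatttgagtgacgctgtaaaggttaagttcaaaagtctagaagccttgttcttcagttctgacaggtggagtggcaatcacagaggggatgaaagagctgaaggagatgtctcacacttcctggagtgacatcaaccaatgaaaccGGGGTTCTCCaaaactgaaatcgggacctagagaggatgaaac
AA467197 (chr2:122637637-122637886, plus strand): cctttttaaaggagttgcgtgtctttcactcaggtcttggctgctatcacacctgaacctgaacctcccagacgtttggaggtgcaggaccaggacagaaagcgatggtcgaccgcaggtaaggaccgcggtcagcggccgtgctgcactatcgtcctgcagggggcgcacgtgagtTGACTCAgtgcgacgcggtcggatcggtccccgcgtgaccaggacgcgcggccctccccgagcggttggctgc
Of 32851 promoters of this length, 5.0% held the NF-kB motif, which was searched in the direction of the gene only. The AP-1 motif (TGACTCA or TGAGTCA), searched on either strand, was present in 4.46%. Matches describe the letters and do not show that a factor bound there.

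Of the 4 genes lower in all 3 lineages, Apoe and Lyz2 were abundant myeloid transcripts. Apoe, which carries lipids and is made by phagocytes that clear myelin, was at 25613 and 7652 CPM in mIgG1 and Ang2 Ab, and 3192 and 5609 in Ctrl and EC-Ang2 in myeloid cells (-1.74, -1.75 to -1.73). Lyz2, the lysozyme of phagocytes, was at 23019.5 and 12809.7 CPM in mIgG1 and Ang2 Ab, and 5617 and 12506 in Ctrl and EC-Ang2 (-0.85, -0.85 to -0.84). Both were higher in mIgG1 than in the other 3 libraries. In ECs Apoe was at 1654 and 977 CPM and Lyz2 at 641 and 365 CPM, of which free RNA made up 65.8% and 40.2% for Apoe and 97.2% and 95.7% for Lyz2, and in T cells it made up 90.3% and 109% and 101% and 111%. With free RNA subtracted, the ratios of Apoe in ECs (0.05) and of Lyz2 in ECs (-0.20) and T cells (0.27) were within 1.5-fold. Lyz2 was itself among the genes that scale free RNA in ECs and T cells. Its shares and subtracted ratios there were therefore largely set by that choice and are no separate result.

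8430408G22Rik, also known as Depp1 and a target of FOXO factors, was an EC transcript at 744 and 378 CPM in mIgG1 and Ang2 Ab, and 842 and 517 in Ctrl and EC-Ang2 (-0.98, -1.02 to -0.94). Its ratios in myeloid cells (-0.74) and T cells (-1.52) rested on levels that were 93.2% and 129.9% and 29.1% and 62.9% free RNA. Nrgn, a calmodulin-binding protein best known from neurons, was measured mainly in T cells, at 513 and 206 CPM in mIgG1 and Ang2 Ab, and 4.00 and 17.2 in Ctrl and EC-Ang2 (-1.32, -1.51 to -1.12). In myeloid cells 10 cells held 66.7% and 80.7% of its UMIs, and its ratio there was 0.04 without the barcodes of highest doublet score. T cells that had more than 2 endothelial UMIs were also left out, a choice made after seeing the data. Then 8430408G22Rik was no longer counted as lower in T cells, and neither Mgp nor Hbegf as higher. These genes had fewer than 100 UMIs left there. Hbegf was at 17.8 and 53.6 CPM in the T cells that remained. With those cells 7 genes were higher in all 3 lineages, among them Hspb1, described below.

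**Figure D1:**
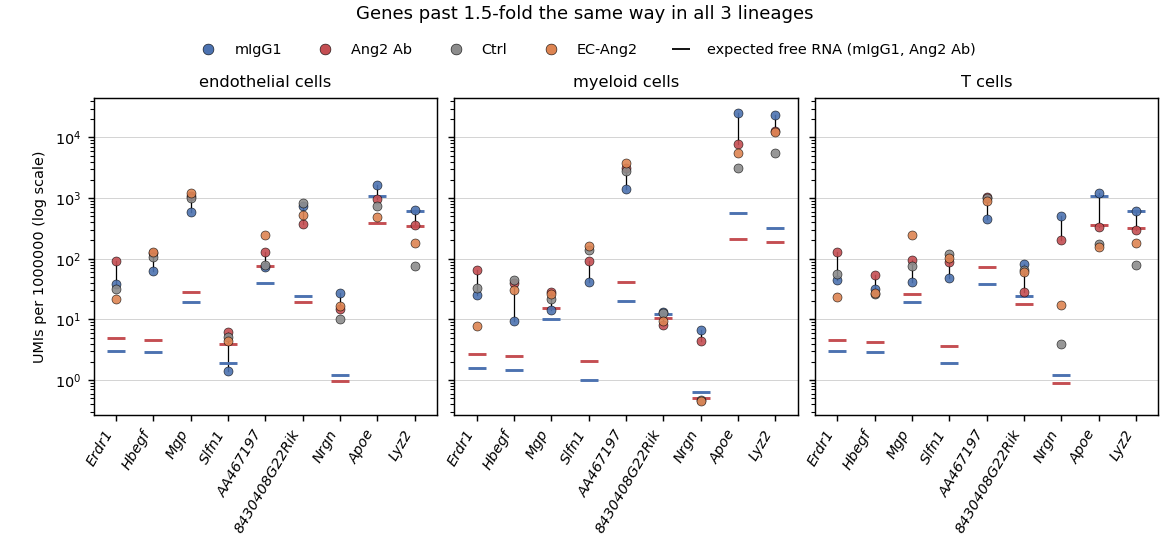
Levels of the 5 higher and 4 lower shared genes in each library (points, UMIs per 1000000 on a log scale) in ECs, myeloid cells, and T cells, with a line joining mIgG1 and Ang2 Ab and short bars at the level expected from free RNA. The bars reach the points of Lyz2 and Apoe in T cells and lie below those of Erdr1 and Hbegf in every lineage. Lyz2 is among the genes that scale free RNA in ECs and T cells.

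Pairs of lineages shared more. ECs and myeloid cells had 59 genes that rose in both, 35.3% of the genes higher in ECs and 15.3% of those higher in myeloid cells among the 8788 counted in both, but free RNA was at most 25% in both libraries and lineages for only 17 of them. Myeloid and T cells had 31 genes that rose in both (23% and 26.5% of the higher genes), 28 of them with low free RNA, among which were the interferon-induced genes Isg15, Ifit1, Zbp1, and Rtp4, the chemokine Cxcl10, and the cytotoxic protease Gzmb. The myeloid rise of Gzmb rested on few cells. With cells thinned to the same depth, 0.794% (0.492% to 1.21%) of mIgG1 myeloid cells had a Gzmb UMI. In Ang2 Ab the share was 0.871% (0.564% to 1.28%), and these intervals overlap. The unthinned shares were 1.32% and 1.78%. ECs and T cells had 9 genes that rose in both, of which 4 had low free RNA and among which was Gadd45g, a growth arrest gene induced by stress. Falls shared by 2 lineages numbered 24 for ECs and myeloid cells, 11 for ECs and T cells, and 9 for myeloid and T cells, but only 9, 2, and 4 of these had low free RNA.

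Ratios of stress genes in ECs lay mostly above 0, with few past 1.5-fold. All 21 heat shock chaperones measured in ECs had ratios above 0, with a median of 0.26 beside 0.04 over all genes, but only 3 were past 1.5-fold and none was lower. Hspb1, a small heat shock protein that binds actin, was at 1651 and 2653 CPM in mIgG1 and Ang2 Ab, and 2786 and 1680.1 in Ctrl and EC-Ang2 (log2 ratio 0.68, 0.66 to 0.70). Hspa1b, an inducible HSP70, was at 195 and 301 CPM in mIgG1 and Ang2 Ab, and 186 and 154 in Ctrl and EC-Ang2 (0.63, 0.57 to 0.69), and Hsp90aa1, the inducible HSP90, was at 478 and 719 CPM in mIgG1 and Ang2 Ab, and 807 and 556 in Ctrl and EC-Ang2 (0.59, 0.55 to 0.63). Hspa1a, a near-identical copy of Hspa1b with which it can exchange reads, was at 2677 and 3929 CPM in mIgG1 and Ang2 Ab, and 4164 and 2335 in Ctrl and EC-Ang2 (0.55, 0.54 to 0.57), just under the rule. For Hspb1, Hspa1a, and Hsp90aa1 the Ang2 Ab and Ctrl libraries were the high pair and mIgG1 and EC-Ang2 the low pair, so that Ang2 Ab was not beyond a library without antibody; mIgG1 was the lowest of 4 in 15 of the 21 chaperones, compared with 22.6% of all genes counted in ECs.

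Hspb1 and Hspa1b had ratios above 0 in every EC subset. They were 0.62 in arterial, 0.69 in venous, and 0.45 in remaining ECs for Hspb1, and likewise for Hspa1b (0.60, 0.63, and 0.69). With each EC thinned to 2000 UMIs, the share of ECs with an Hspb1 UMI was 87.6% and 95.6% in mIgG1 and Ang2 Ab (97.1% and 99.1% without thinning) and that of T cells, in which free RNA made up 35.8% and 43.7% of the level, was 13.2% and 16.9% (22.9% and 33.8%). Hspa1b and Hspb1 also rose in myeloid cells (0.62 and 0.70), where free RNA made up 30.7% and 29.9% and 68.5% and 65.2%. The rise of Hspa1b there was in cells with microglial UMIs (1.61, compared with 0.23 in myeloid cells of no subset). Over the chaperones, the median was 0.13 in myeloid cells, 0.30 in microglial and 0.02 in the remaining cells. It was 0.21 in T cells, with none of 18 past 1.5-fold. Without T cells that had more than 2 endothelial UMIs, as above, the T cell median was 0.28. Hspa1a (0.96, 0.58 to 1.35), Hspb1 (0.82, 0.32 to 1.34), and Hspa4 (0.59, 0.17 to 1.01) were then past 1.5-fold in T cells. Hspa1b, the near-identical copy of Hspa1a, went the other way in these cells (-1.97, -3.99 to -0.36). It had only 18 UMIs in mIgG1 and 4 in Ang2 Ab, too few to be counted.

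Both chaperone promoters are shown because heat shock elements mark genes of this response. Capitals mark heat shock element cores (GAANNTTC or TTCNNGAA), which begin 117 and 97 bases before the start in Hspb1 and 104 bases before it in Hspa1b, and an NF-kB motif 133 bases before the start in Hspa1b.
Hspb1 (chr5:135887669-135887918, plus strand): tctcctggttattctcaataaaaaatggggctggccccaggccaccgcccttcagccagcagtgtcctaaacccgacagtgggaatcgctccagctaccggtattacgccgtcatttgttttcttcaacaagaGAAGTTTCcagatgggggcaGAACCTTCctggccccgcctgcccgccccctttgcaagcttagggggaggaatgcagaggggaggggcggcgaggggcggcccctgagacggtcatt
Hspa1b (chr17:34959239-34959488, minus strand): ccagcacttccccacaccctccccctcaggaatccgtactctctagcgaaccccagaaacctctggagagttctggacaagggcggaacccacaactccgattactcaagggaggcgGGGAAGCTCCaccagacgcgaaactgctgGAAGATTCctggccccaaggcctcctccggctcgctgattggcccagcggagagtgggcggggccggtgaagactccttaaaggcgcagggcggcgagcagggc
The core was present in 12.8% of all promoters and in 9 of the 17 chaperone promoters for which a sequence was given.

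Early response genes had ratios mostly above 0 in ECs and myeloid cells and mostly below 0 in T cells. Of 23 early response transcription factors in ECs, 21 had ratios above 0 (median 0.22), but only Fos, the partner of JUN in AP-1, was past 1.5-fold, at 1652 and 2554 CPM in mIgG1 and Ang2 Ab, and 2489 and 1642 in Ctrl and EC-Ang2 (0.63, 0.61 to 0.65). In the feedback list 4 of 24 genes rose in ECs and none fell, compared with 2.63% and 2.80% of all genes counted in ECs. Gadd45g was at 329 and 679 CPM in mIgG1 and Ang2 Ab, and 562 and 319.6 in Ctrl and EC-Ang2 (1.05, 1.0 to 1.09), the highest level of the 4 libraries. The inhibitors of receptor kinase signaling Spry1 and Spry2 rose by 0.89 and 0.80, and Zfp36l2, which destabilizes mRNAs, by 0.67. With each cell thinned to 2000 UMIs, Gadd45g was found in 36.7% and 57.1% of ECs (58.0% and 71.6% unthinned) and in 7.22% and 6.72% of myeloid cells (19.3% and 20.7%).

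In T cells, 18 of 21 early response factors had ratios below 0 (median -0.21). Jun was at 217 and 122 CPM in mIgG1 and Ang2 Ab, and 326 and 128 in Ctrl and EC-Ang2 (-0.83, -1.1 to -0.57), Dusp1, a phosphatase of MAP kinases, at 280.0 and 167 CPM in mIgG1 and Ang2 Ab (-0.75, -0.98 to -0.52), and Ier3 at 258 and 132 CPM (-0.96, -1.22 to -0.71). These 3 are also abundant in ECs, and endothelial markers in T cells summed to 3743 CPM (mIgG1) and 2476 CPM (Ang2 Ab), with each of the 14 below its mIgG1 level. Removing T cells with more than 2 endothelial UMIs, as above, left 289 and 245 cells with 1001 and 1269 CPM of these markers, and the ratios were then -0.16 for Ier3, -0.41 for Jun, and -0.65 for Dusp1. The list medians in T cells changed little with this removal, from -0.21 to -0.20 for early response and from -0.27 to -0.28 for the feedback list. With each cell thinned to 2000 UMIs instead, they were -0.05 and -0.30. The part of these endothelial UMIs in the falls was not tested further. Gadd45g rose in T cells as well, at 41.9 and 79.8 CPM in mIgG1 and Ang2 Ab, and 94.0 and 54.2 in Ctrl and EC-Ang2 (0.93, 0.49 to 1.38).

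In myeloid cells 21 of 24 early response genes had ratios above 0 (median 0.30), and those that rose were Fosl1 (1.16, 0.66 to 1.66) and Egr1, at 25.5 and 47.3 CPM in mIgG1 and Ang2 Ab, and 175 and 26.8 in Ctrl and EC-Ang2 (0.89, 0.74 to 1.04). Fos, which rose in ECs, had the lowest ratio of these genes in myeloid cells (-0.36), within 1.5-fold. With cells thinned to the same depth, 64.0% (62.1% to 65.8%) of mIgG1 myeloid cells had a Fos UMI. In Ang2 Ab the share was 54.3% (52.5% to 56.2%). Egr1 was 1.61 in microglial cells and 0.16 in the cells of no subset, where the early response medians were 0.36 and 0.14. Of the feedback genes, Nfkbiz, an inducible nuclear partner of NF-kB, rose from 56.6 to 111 CPM (0.97, 0.87 to 1.07), Socs1, which limits cytokine receptor signaling, from 12.7 to 23.4 CPM (0.88, 0.66 to 1.09), and Dusp2 from 62.4 to 95.3 CPM (0.61, 0.51 to 0.71). Nfkbiz was higher in microglial cells (1.41) and Socs1 in the cells of no subset (1.03, compared with -0.03 in microglial cells). The Ctrl library was the highest of 4 for Egr1, Nfkbiz, Dusp2, and Socs1, and 51.6% of its myeloid cells were microglial, compared with 22.7% in mIgG1 and 22% in Ang2 Ab.

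**Figure D2:**
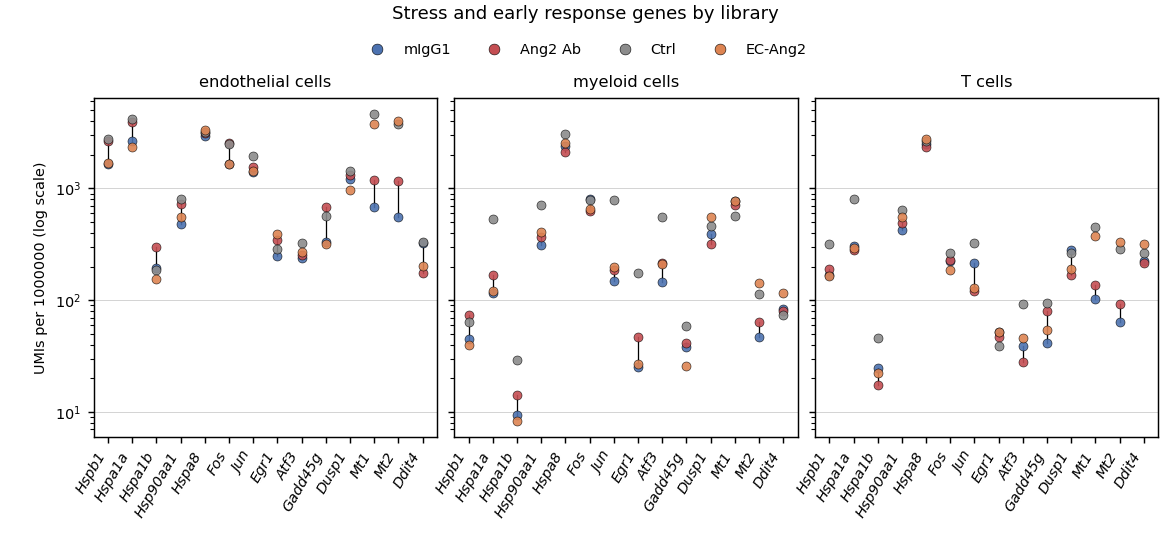
Levels of 14 stress and early response genes in each library (points, UMIs per 1000000 on a log scale) in the 3 lineages, with a line joining mIgG1 and Ang2 Ab. In ECs, Hspb1, Hspa1a, and Fos fall into a high pair (Ang2 Ab and Ctrl) and a low pair (mIgG1 and EC-Ang2), whereas Mt1 and Mt2 are far higher in the Ctrl and EC-Ang2 libraries than in Ang2 Ab.

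The other stress lists had few genes past 1.5-fold in ECs, where 2.63% of all genes were higher and 2.80% lower. In ECs the metallothioneins Mt1 and Mt2, which bind zinc and copper, rose from 681 to 1195 CPM (0.81, 0.78 to 0.84) and from 556 to 1166 CPM (1.07, 1.03 to 1.1), but stood at 4657 and 3773 CPM in Ctrl. With Slc7a11, whose EC level was 80.9% and 50.6% free RNA, these were 3 of 19 oxidative and metal response genes that rose, and the quinone reductase Nqo1 fell by 0.76 on the log2 scale. Of 19 endoplasmic reticulum stress genes none rose in ECs and Ddit4, an inhibitor of mTORC1 induced by hypoxia and glucocorticoids, fell, at 328 and 177 CPM in mIgG1 and Ang2 Ab, and 333 and 203 in Ctrl and EC-Ang2 (-0.89, -0.95 to -0.83). Of 18 hypoxia and glycolysis genes, Pfkfb3, which drives glycolysis in sprouting ECs, fell (-0.91, -1.12 to -0.70) and none rose, and none of 11 p53 targets passed 1.5-fold (medians 0.06 and -0.07).

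Tsc22d3, a glucocorticoid-induced gene, and the clock genes Dbp and Per1 were looked at beside Ddit4 after their values were seen. Tsc22d3 was at 643 and 396 CPM in mIgG1 and Ang2 Ab, and 664 and 270.4 in Ctrl and EC-Ang2 in ECs (-0.70, -0.74 to -0.65), Dbp at 18.8 and 5.71 CPM in mIgG1 and Ang2 Ab, and 29.2 and 7.74 in Ctrl and EC-Ang2 (-1.72, -2.05 to -1.39), and Per1 at 38.0 and 24.5 CPM in mIgG1 and Ang2 Ab, and 29.4 and 24.3 in Ctrl and EC-Ang2 (-0.63, -0.81 to -0.46). For Ddit4, Dbp, and Tsc22d3 mIgG1 and Ctrl were the high libraries and Ang2 Ab and EC-Ang2 the low ones, a split unlike that of Hspb1. In myeloid cells the medians were 0.29 for the endoplasmic reticulum list, with 17 of 19 ratios above 0, and 0.27 for hypoxia and glycolysis, both above that of the chaperones. These 2 medians were 0.44 and 0.15 in microglial cells, and 0.17 and 0.37 in cells of no subset. Of these genes Ddit3 and Herpud1 (0.61 and 0.67), 2 of the 19 for endoplasmic reticulum stress, rose. So did Pfkp (0.72), 1 of 20 for hypoxia and glycolysis. Such counts are close to the 5.71% of all genes that rose in myeloid cells. In T cells Pgk1, Eno1, and Ero1l (0.86, 0.69, and 0.59) rose among 15 hypoxia and glycolysis genes (median 0.34), with Atf4 (0.63) and Gsr (0.59) from the endoplasmic reticulum and oxidative lists.

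The interferon response genes went opposite ways in ECs and myeloid cells. In ECs, 7 of 22 fell and none rose (median -0.27), whereas in myeloid cells 14 of 22 rose and none fell, and all 22 had ratios above 0 (median 0.67). Of all genes counted, 2.80% fell in ECs and 5.71% rose in myeloid cells. The genes with the largest changes differed. In ECs those that fell included the GTPases Gbp3, Gbp4, Gbp5, Gbp7, Irgm1, and Igtp, genes that interferon-gamma induces strongly; in myeloid cells the largest rises were in Ifit1, Rsad2, Oasl1, and Ifit2, antiviral effectors that type I interferon induces. Irgm1, Igtp, and Gbp5 were past 1.5-fold in both, downward in ECs and upward in myeloid cells. In T cells Isg15, Ifit1, and Irf8 rose among 14 genes (median 0.34), the first 2 by 0.70 and 0.67, which became 0.34 and 0.04 with a minimum of 4000 UMIs per barcode.

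Gbp4 was at 244 and 127 CPM in mIgG1 and Ang2 Ab, and 66.3 and 225 in Ctrl and EC-Ang2 in ECs (-0.94, -1.02 to -0.87), and Irgm1 at 133 and 71.3 CPM in mIgG1 and Ang2 Ab, and 79.9 and 129.6 in Ctrl and EC-Ang2 (-0.90, -1.0 to -0.80). For both genes mIgG1 and EC-Ang2 were the high libraries and Ang2 Ab and Ctrl the low ones, the reverse of Hspb1 and Fos; mIgG1 was the highest of 4 in 13 of the 22 genes, compared with 19.9% of all genes counted in ECs. The falls were present in arterial, venous, and remaining ECs (Gbp4 -0.86, -0.88, and -1.11), and the share of ECs with a Gbp4 UMI was 28.0% and 12.5% in mIgG1 and Ang2 Ab at 2000 UMIs per cell (48.9% and 23.2% unthinned). In myeloid cells that share was 4.57% and 6.55% (15.9% and 16.7%). The EC list median was sensitive to depth, -0.10 with a minimum of 4000 UMIs per barcode. At 2000 UMIs per barcode the list median was -0.37 in arterial, -0.31 in venous, and -0.60 in remaining ECs.

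In myeloid cells Ifit1, an RNA-binding antiviral protein, was at 23.2 and 79.1 CPM in mIgG1 and Ang2 Ab, and 166 and 113 in Ctrl and EC-Ang2 (1.77, 1.63 to 1.92), and Rsad2 at 41.6 and 138 CPM in mIgG1 and Ang2 Ab, and 247 and 186 in Ctrl and EC-Ang2 (1.73, 1.62 to 1.84). Isg15, a ubiquitin-like protein, was at 478 and 1099.6 CPM in mIgG1 and Ang2 Ab, and 1527 and 1195 in Ctrl and EC-Ang2 (1.2, 1.17 to 1.24), whereas in ECs it was at 439 and 441 CPM (0.01, -0.04 to 0.05). The mIgG1 library was the lowest of 4 for all 22 interferon genes in myeloid cells, compared with 29.1% of all genes counted there, and Ang2 Ab was the highest for none of them. The rises of Ifit1 and Rsad2, among the largest of the list, were larger in myeloid cells of no subset than in microglial cells. They were 2.00 and 0.59 for Ifit1 and 2.15 and 0.44 for Rsad2. The list medians lay closer, at 0.43 in microglial, 0.65 in neutrophil, 0.73 in dendritic, and 0.65 in remaining myeloid cells.

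The promoters of Irgm1 and Igtp, which went opposite ways in the 2 lineages, and of Rsad2, which rose in myeloid cells alone of the 2, are shown with matches to the interferon-stimulated response element (ISRE, GAAA and GAAA with a gap of 2 bases, or TTTC and TTTC on the other strand) and the gamma-activated site (GAS, TTCNNNGAA) in capitals. ISRE matches begin 30 and 24 bases before the start in Irgm1, where they overlap each other and a heat shock element core, 34 bases before it in Igtp, and 120 bases before it in Rsad2. Igtp has a GAS match 45 bases before the start, and AP-1 motifs in Irgm1 and Rsad2 lie 115 and 87 bases before it.
Irgm1 (chr11:48871421-48871670, minus strand): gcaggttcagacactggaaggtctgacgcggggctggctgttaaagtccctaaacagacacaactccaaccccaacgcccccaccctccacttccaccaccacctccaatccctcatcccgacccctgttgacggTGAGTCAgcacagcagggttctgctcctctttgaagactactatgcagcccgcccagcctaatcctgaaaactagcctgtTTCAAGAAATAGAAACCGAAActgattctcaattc
Igtp (chr11:58199306-58199555, plus strand): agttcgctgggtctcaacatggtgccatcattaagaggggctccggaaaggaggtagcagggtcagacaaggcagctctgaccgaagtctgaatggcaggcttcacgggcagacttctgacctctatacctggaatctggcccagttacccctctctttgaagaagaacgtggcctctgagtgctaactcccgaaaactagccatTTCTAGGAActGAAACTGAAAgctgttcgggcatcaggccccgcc
Rsad2 (chr12:26456453-26456702, minus strand): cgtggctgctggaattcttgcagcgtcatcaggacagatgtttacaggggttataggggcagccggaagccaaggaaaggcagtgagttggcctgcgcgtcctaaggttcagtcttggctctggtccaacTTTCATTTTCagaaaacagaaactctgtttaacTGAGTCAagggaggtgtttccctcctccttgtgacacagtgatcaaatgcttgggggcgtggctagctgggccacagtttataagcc
Of all promoters, 2.98% held the ISRE and 7.02% the GAS. The ISRE was found in 12 and the GAS in 7 of the 18 interferon list genes that have a sequence in RefSeq's promoter set used here.

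MHC class I genes fell in ECs and stayed within 1.5-fold in both other lineages. Of 14, 8 were lower and none higher in ECs, and all 14 had ratios below 0 (median -0.60), whereas none passed 1.5-fold in myeloid cells (median 0.13) or T cells (0.06, 13 genes). B2m, the light chain common to class I molecules, was at 5338 and 3544 CPM in mIgG1 and Ang2 Ab, and 4079.6 and 4959 in Ctrl and EC-Ang2 (-0.59, -0.61 to -0.58), and H2-K1, a classical heavy chain, at 1607 and 1000.4 CPM in mIgG1 and Ang2 Ab, and 969.5 and 1498 in Ctrl and EC-Ang2 (-0.68, -0.71 to -0.66). The nonclassical H2-Q7 was at 289 and 139.8 CPM in mIgG1 and Ang2 Ab, and 98.3 and 289 in Ctrl and EC-Ang2 (-1.05, -1.12 to -0.98), with its near-identical neighbor H2-Q6 at 111 and 49.4 CPM in the pair (-1.17, -1.29 to -1.06), between which reads can be split. Psmb9, a subunit of the immunoproteasome, fell to 113 from 203 CPM (-0.85, -0.93 to -0.77), and Tap1, of the peptide transporter, by 0.69 on the log2 scale. As for Gbp4, mIgG1 was the highest of 4 libraries in 13 of the 14 genes. In mIgG1 the ECs had 58.9% of cells with an H2-Q7 UMI and in Ang2 Ab 27.8%, or 33.3% and 14.8% at 2000 UMIs per cell.

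With a minimum of 4000 UMIs per barcode, B2m, H2-K1, H2-T23, and Tap1 lay between -0.57 and -0.50, within 1.5-fold, and the list median was -0.51. The MHC class II genes had medians of -0.45 in ECs, -0.36 in myeloid cells, and -0.29 in T cells. H2-Aa was past 1.5-fold in ECs (-0.65) and T cells (-0.65), where free RNA made up 95.8% and 113% and 97.8% and 108% of its level. None of 8 passed 1.5-fold in myeloid cells, where H2-Aa was at 4416 and 3080.4 CPM in mIgG1 and Ang2 Ab, and 2431 and 2375 in Ctrl and EC-Ang2 (-0.52, -0.53 to -0.51).

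**Figure D3:**
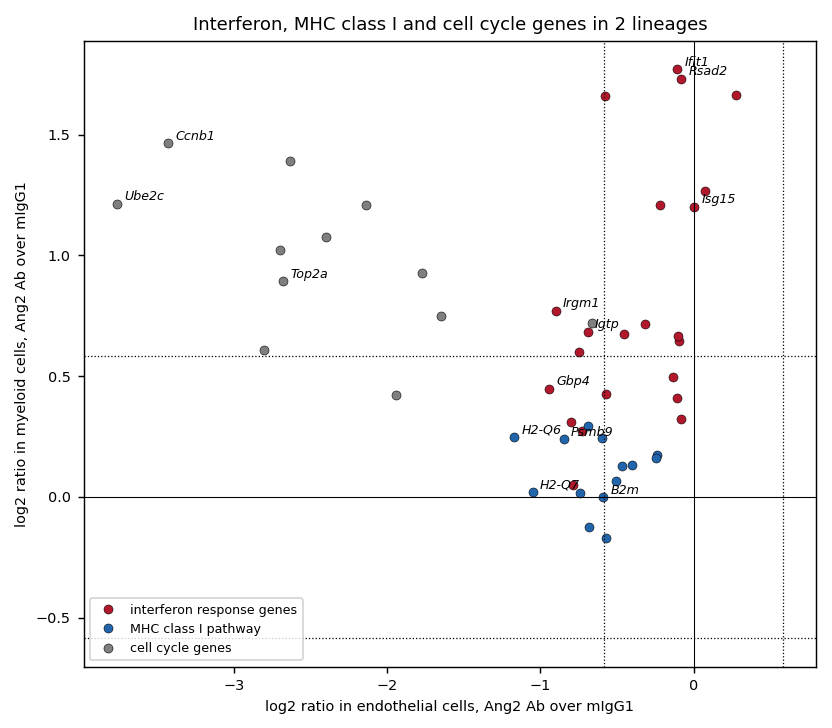
Log2 ratios of Ang2 Ab over mIgG1 in ECs (horizontal axis) and in myeloid cells (vertical axis) for genes of the interferon list, the MHC class I list, and 12 cell cycle genes, with dotted lines at 1.5-fold. Irgm1 and Igtp lie lower in ECs and higher in myeloid cells, Ifit1 and Rsad2 are higher in myeloid cells with EC ratios near 0, and MHC class I genes lie lower in ECs with myeloid ratios near 0.

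Chemokines and cytokines were the list with the largest rise in myeloid cells, with 19 of 29 higher and 1 lower (median 1.13). Ccl24, an eosinophil attractant made by alternatively activated macrophages, was at 6.80 and 319.7 CPM in mIgG1 and Ang2 Ab, and 101 and 148 in Ctrl and EC-Ang2 (5.55, 5.32 to 5.80). Ccl17, a ligand of CCR4, was at 129 and 591 CPM in mIgG1 and Ang2 Ab, and 273 and 247 in Ctrl and EC-Ang2 (2.19, 2.13 to 2.25). For both genes Ang2 Ab was the highest of the 4 libraries, and 10 cells held 80.7% and 20.4% of the Ccl24 UMIs in mIgG1 and Ang2 Ab.

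Inflammatory members rose too. Tnf was at 34.5 and 113 CPM in mIgG1 and Ang2 Ab, and 535 and 47.1 in Ctrl and EC-Ang2 (1.72, 1.6 to 1.84), Ccl2, which recruits CCR2-bearing monocytes, at 112 and 356 CPM in mIgG1 and Ang2 Ab, and 610.3 and 402 in Ctrl and EC-Ang2 (1.66, 1.59 to 1.73), and Cxcl10, an interferon-induced ligand of CXCR3, at 130.5 and 389 CPM in mIgG1 and Ang2 Ab, and 866 and 416 in Ctrl and EC-Ang2 (1.58, 1.52 to 1.64). Here mIgG1 was the lowest library and Ctrl the highest, so that Ang2 Ab lay between the control libraries; mIgG1 was the lowest of 4 in 20 of the 29 genes. The T cell cytokine Ifng was lower in myeloid cells (6.08 and 2.45 CPM, -1.31, -1.81 to -0.83), where 10 cells held 72.4% and 67.3% of its UMIs.

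In ECs 10 of 24 chemokines and cytokines were past 1.5-fold upward, but the level of most of them was that expected from free RNA, 154% and 98.6% for Ccl4, 129% and 74.4% for Ccl17, and 139% and 101% for Il1a. Ccl24 had 1 UMI in mIgG1 ECs. With free RNA subtracted, the EC median went from 0.40 to 0.19. Cxcl9, an interferon-gamma–induced chemokine with little free RNA in ECs, fell from 91.6 to 57.8 CPM (-0.67, -0.78 to -0.55; free RNA 6.49% and 8.36%), with 10 cells holding 35.7% and 73.7% of its UMIs.

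Apolipoprotein and lysosomal genes fell in myeloid cells, 7 of 17 with none higher (median -0.53). Besides Apoe these were Apoc1, Apoc4, Trem2, Gpnmb, Ctsb, and Ctsd. Gpnmb, a membrane glycoprotein of phagocytes with a high lipid load, was at 646 and 254 CPM in mIgG1 and Ang2 Ab, and 34.7 and 331 in Ctrl and EC-Ang2 (-1.35, -1.39 to -1.30), and Trem2, a lipid receptor of microglia and macrophages, at 604 and 349.8 CPM in mIgG1 and Ang2 Ab, and 546 and 219 in Ctrl and EC-Ang2 (-0.79, -0.83 to -0.75). The protease Ctsd was at 5398 and 3174 CPM in mIgG1 and Ang2 Ab, and 3068 and 2742 in Ctrl and EC-Ang2 (-0.77, -0.78 to -0.75). The mIgG1 library was the highest of 4 in 13 of the 17 genes, compared with 18.4% of all genes counted in myeloid cells. The falls were present in microglial cells and in cells of no subset, -1.74 and -1.69 for Apoe and -1.24 and -1.33 for Gpnmb.

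Among 8 acute phase and alarmin genes in myeloid cells, the serum amyloid gene Saa3 fell, at 1233 and 327 CPM in mIgG1 and Ang2 Ab, and 340.3 and 1616 in Ctrl and EC-Ang2 (-1.92, -1.95 to -1.88), as did haptoglobin (Hp, -0.94, -0.99 to -0.88). The neutrophil genes S100a8 and S100a9 rose (1.19 and 1.75). S100a8 was at 0.04 without the neutrophils, which numbered 58 in mIgG1 and 139 in Ang2 Ab. S100a9 was at 0.64 with the myeloid subsets weighted alike. Neutrophils were defined by UMIs of these same 2 genes. Both values were therefore partly set by that choice and are no separate result. Lcn2 rose in myeloid cells by 0.86 (0.56 without neutrophils). In ECs 3 of 8 genes of this list rose and 2 fell. The largest changes there were in myeloid transcripts with much free RNA, S100a8 at 28.4 and 132 CPM (2.22, 2.08 to 2.36; free RNA 97.2% and 38.8%), S100a9 (2.14; 116% and 49.2%), Saa3 at 59.9 and 27.0 CPM (-1.15, -1.31 to -1.0; 67.2% and 60.7%), and Hp (-0.66; 79.3% and 86.2%). Lrg1, an acute phase glycoprotein made by activated endothelium, rose as well, at 1382 and 2136 CPM in mIgG1 and Ang2 Ab, and 1369 and 2655 in Ctrl and EC-Ang2 (0.63, 0.61 to 0.65), and Lcn2 was at 2079 and 3078 CPM in mIgG1 and Ang2 Ab, and 4901 and 6591 in Ctrl and EC-Ang2 (0.57, 0.55 to 0.58), just under the rule. The shift of Lrg1 was largest in the ECs that were neither arterial nor venous (1.30).

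**Figure D4:**
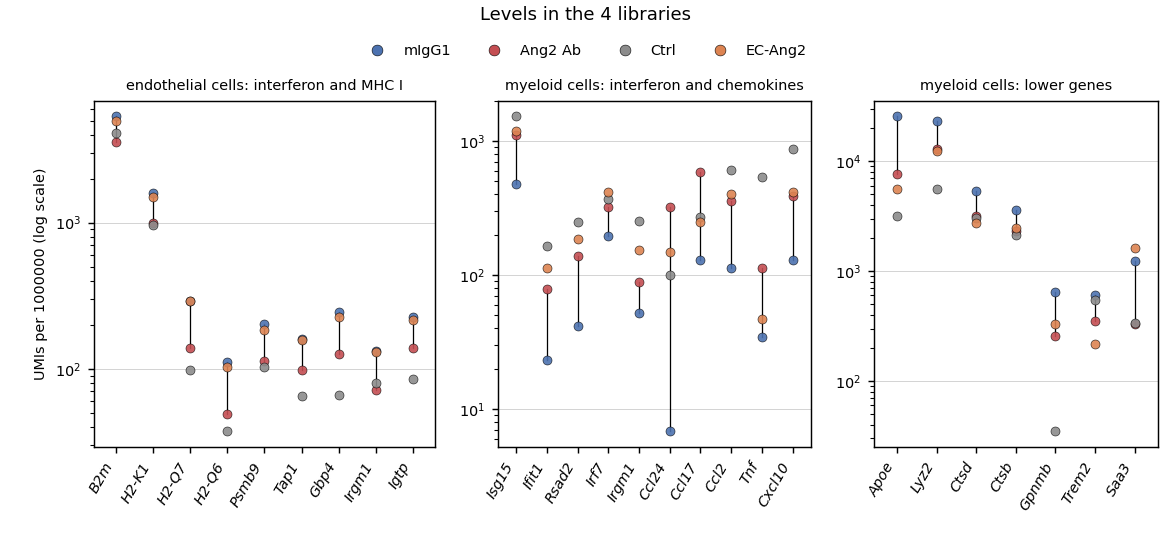
Levels of interferon and MHC class I genes in ECs, of interferon and chemokine genes in myeloid cells, and of genes lower in myeloid cells, in each library (points, UMIs per 1000000 on a log scale), with a line joining mIgG1 and Ang2 Ab. In ECs mIgG1 and EC-Ang2 are the high libraries, whereas in myeloid cells mIgG1 is the lowest for Isg15 to Irgm1 and the highest for Apoe, Lyz2, Ctsd, Ctsb, Gpnmb, and Trem2.

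Genes that passed 1.5-fold in 1 lineage while both others stayed within 1.2-fold were taken as changes of that lineage alone, among the 3461 genes counted in all 3. In ECs 12 (0.347%) were higher and 16 (0.462%) lower. The higher ones included Nek7 (0.84, 0.76 to 0.92), a kinase that activates the NLRP3 inflammasome, and Pim3, a survival kinase, at 339.9 and 604 CPM in mIgG1 and Ang2 Ab, and 624 and 449.6 in Ctrl and EC-Ang2 (0.83, 0.78 to 0.87). Agpat5, H2afj, Klhl6, Nt5e, Nab2, and Hsp90aa1 rose by 0.59 to 0.83. Of the lower genes with little free RNA, the largest falls included H2-Q6, H2-Q7, Psmb9, and H2-T22, of the MHC class I pathway, and Ddit4, Trp53i11, and Pmf1. Trp53i11, a gene inducible by p53, was at 53.8 and 31.5 CPM in mIgG1 and Ang2 Ab, and 14.4 and 78.4 in Ctrl and EC-Ang2 (-0.77, -0.92 to -0.62). Once T cells with more than 2 endothelial UMIs were left out, the 12 higher and 12 of the 16 lower genes were kept. Pmf1 and Trp53i11 were then at -0.65 and -0.41 in T cells, outside 1.2-fold. Thinning each cell to 2000 UMIs kept 2 of the 12 and 8 of the 16.

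In myeloid cells 21 (0.607%) were higher and 2 (0.0578%) lower alone. Isg20, an interferon-induced exonuclease, rose most, at 20.4 and 55.9 CPM in mIgG1 and Ang2 Ab, and 109.5 and 78.7 in Ctrl and EC-Ang2 (1.45, 1.29 to 1.61), by 1.69 in cells of no subset and 0.37 in microglial cells. Mir155hg, the host gene of a microRNA of macrophage activation, rose by 1.12, and Ccnd2, a cyclin of the G1 phase, from 66.7 to 139 CPM (1.06, 0.97 to 1.15). Glipr2, Stk39, Tes, Nfkbiz, and Rgcc rose by 0.85 to 1.08. The lower genes were Fyb, an adaptor of integrin signaling (-0.61, -0.68 to -0.54), and the heme transporter Slc48a1 (-0.60, -0.72 to -0.47). Once T cells with more than 2 endothelial UMIs were left out, 16 of the 21 higher and 0 of the 2 lower genes were kept. Fyb was then at -0.32 in T cells, and Slc48a1 at 0.62, from 39 and 52 UMIs. Thinning each cell to 2000 UMIs kept 7 of the 21 and 0 of the 2.

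In T cells 39 (1.13%) were higher and 69 (1.99%) lower alone, from 340 and 284 cells. Cysltr1, a leukotriene receptor, was at 18.6 and 55.3 CPM in mIgG1 and Ang2 Ab, and 65.0 and 55.8 in Ctrl and EC-Ang2 (1.57, 0.96 to 2.21), and Ifitm1, an interferon-induced membrane protein, at 212 and 466 CPM in mIgG1 and Ang2 Ab, and 376 and 378 in Ctrl and EC-Ang2 (1.14, 0.95 to 1.32). The T cell growth factor Il2 fell, at 80.9 and 12.6 CPM in mIgG1 and Ang2 Ab, and 10 and 124 in Ctrl and EC-Ang2 (-2.68, -3.48 to -1.97), with 10 cells holding 91.4% and 55.6% of its UMIs. Dctn6, Avpi1, Snhg6, Emsy, Tex30, and Gstp1 rose by 0.85 to 0.90, and 2810001G20Rik, Eci2, Utrn, Peak1, Wbp1, Cxx1a, and Ptms had ratios of -1.02 to -0.82. Without T cells that had endothelial UMIs, 13 of the 39 and 18 of the 69 were kept, and the ratio of Cxx1a turned to 0.41, from 13 and 15 UMIs. Thinning each cell to 2000 UMIs kept only 3 of the 39 and 3 of the 69, so that few of these genes held across settings.

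Some T cell genes outside this set also moved. Among 17 activation genes 3 rose and none fell. Gzmb, a protease of cytotoxic granules, was at 145 and 639.9 CPM in mIgG1 and Ang2 Ab, and 592 and 193 in Ctrl and EC-Ang2 (2.14, 1.94 to 2.35), in 8.24% and 24.3% of T cells at 2000 UMIs per cell (10% and 28.9% unthinned) compared with 0.231% and 0.278% of ECs (0.329% and 0.556%), which should lack it. The costimulatory receptor Tnfrsf9 was at 355 and 590.2 CPM in mIgG1 and Ang2 Ab, and 625 and 423 in Ctrl and EC-Ang2 (0.74, 0.58 to 0.89), and the third was Csf2 (0.64, 0.47 to 0.82; 0.16 without cycling cells). Il17a was at 629 and 646 CPM in the pair (0.04, -0.09 to 0.16) and Ifng at 228 and 237 CPM (0.06, -0.16 to 0.27). The share of T cells with Cd8a, Cd8b1, or NK cell genes was 31.2% (26.3% to 36.4%) in mIgG1 and 36.6% (31.0% to 42.5%) in Ang2 Ab, whose intervals overlap. The 9 NK or CD8 T cell markers, by contrast, summed to 1109 and 1582 CPM in T cells, with 7 of 9 above their mIgG1 level, and the part of such cells in the rise of Gzmb was not tested. Of 8 adhesion molecules of ECs, 6 were lower in T cells (-3.10 for Vcam1, with 10 cells holding 89.2% and 100% of its UMIs), together with the endothelial markers given above.

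In ECs the transcript of the target itself was higher under the antibody. Angpt2, the gene of Ang2, was at 49.1 and 306 CPM in mIgG1 and Ang2 Ab, and 66.0 and 1090.4 in Ctrl and EC-Ang2 (2.64, 2.54 to 2.74), in 5.90% and 21.6% of ECs at 2000 UMIs per cell (13.0% and 30.1% unthinned) compared with 0.113% and 0.941% of myeloid cells (0.907% and 3.76%). It rose in arterial (2.99), venous (2.40), and remaining ECs (2.91). The antibody blocks the protein, so that a transcript level does not check the blockade. Tek, which encodes Tie2, was at 186 and 177 CPM in mIgG1 and Ang2 Ab, and 164 and 112 in Ctrl and EC-Ang2 (-0.07, -0.14 to 0.00), and none of the 5 angiopoietin and Tie genes counted beside Angpt2 passed 1.5-fold. In myeloid cells the Angpt2 level (1.13 and 5.51 CPM, log2 ratio 2.28) was 70.5% and 57.0% free RNA.

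Scgb3a1 and Zbtb16 were named after their values were seen. Scgb3a1, a secreted protein of the secretoglobin family, was at 864 and 3913 CPM in mIgG1 and Ang2 Ab, and 2547 and 943 in Ctrl and EC-Ang2 (2.18, 2.16 to 2.20). Zbtb16, a transcription factor induced by glucocorticoids, was at 21.8 and 68.7 CPM in mIgG1 and Ang2 Ab, and 44.7 and 39.1 in Ctrl and EC-Ang2 (1.65, 1.49 to 1.82). For both and for Gadd45g Ang2 Ab was the highest library and Ctrl the next. Of the 9 FOXO1 target and quiescence genes, Apln and Cited2 rose (0.64 and 0.59), and of 15 TGF-beta and BMP genes the inhibitory Smad7 and Id2 (0.74, 0.62 to 0.86 and 0.68, 0.57 to 0.79). Of 14 EC adhesion molecules only Selp, the platelet and EC selectin, fell (106 and 59.3 CPM, -0.84, -0.95 to -0.73), with Vcam1 at 623 and 468 CPM (-0.41, -0.45 to -0.37).

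Cell cycle genes were among those that moved in opposite directions in ECs and myeloid cells. Of 8788 genes counted in ECs and myeloid cells, 45 (0.512%) were lower in ECs and higher in myeloid cells. The count was 12 with each cell thinned to 2000 UMIs, and 8 of the 45 were kept. Once cells in which at least 3 of 12 cycling genes had a UMI were left out, 11 of the 45 were kept. Several of the 45, such as Top2a and Ube2c, are themselves among those 12 genes. Their loss was therefore partly set by that choice and is no separate result. The 12 cycling genes summed to 476 and 247 CPM in ECs, with none above its mIgG1 level, and to 305 and 416 CPM in myeloid cells, with all 12 above it. Ube2c and Top2a, which were picked after their values were seen, had larger ratios than these sums. Ube2c, which serves the anaphase-promoting complex, was at 23.8 and 1.75 CPM in mIgG1 and Ang2 Ab, and 12.0 and 17.2 in Ctrl and EC-Ang2 in ECs (-3.77, -4.35 to -3.23) and at 7.53 and 17.5 CPM in mIgG1 and Ang2 Ab, and 54.2 and 13.5 in Ctrl and EC-Ang2 in myeloid cells (1.21, 0.94 to 1.49). Top2a, the topoisomerase of dividing cells, was at 22.4 and 3.49 CPM in mIgG1 and Ang2 Ab, and 6.01 and 16.7 in Ctrl and EC-Ang2 in ECs (-2.68, -3.09 to -2.29) and at 10.7 and 20 CPM in mIgG1 and Ang2 Ab, and 56.8 and 10.5 in Ctrl and EC-Ang2 in myeloid cells (0.89, 0.66 to 1.13). Cycling cells by this count made up 4.84% (4.11% to 5.67%) of mIgG1 and 1.25% (0.915% to 1.67%) of Ang2 Ab ECs, 6.31% (5.41% to 7.31%) and 9.62% (8.56% to 10.8%) of myeloid cells, and 12.1% (8.79% to 16%) and 13.4% (9.65% to 17.9%) of T cells. This count depends on depth, which was lower in Ang2 Ab for ECs and myeloid cells. In Ctrl and EC-Ang2 they were 3.11% and 4.87% of ECs and 22.1% and 5.62% of myeloid cells. In microglial cells the ratio of Top2a was 1.5, and in myeloid cells of no subset -0.14.

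Among the 45 genes were also Irgm1, Irgm2, Igtp, Gbp5, Tgtp1, and Tgtp2, GTPases of the interferon-gamma response, of which Tgtp1 and Tgtp2 are near-identical copies. Only 2 genes went the other way, Dnaaf3 and Ctdspl, higher in ECs and lower in myeloid cells. Haemoglobin genes had 40 UMIs in mIgG1 and 17218 in Ang2 Ab ECs, with 10 cells holding 99.4% of the latter.

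Housekeeping lists had few genes past 1.5-fold. None of 20 ribosomal protein genes passed 1.5-fold in any lineage (medians -0.23, -0.08, and -0.04 in ECs, myeloid cells, and T cells), and none of 20 nuclear subunits of oxidative phosphorylation (-0.01, 0.04, and 0.03). The 13 mitochondrially encoded genes had medians of 0.01, 0.19, and -0.06, with mt-Atp8 lower in T cells (-0.60). Of the ribosomal genes, 19 of 20 had ratios below 0 in ECs and 17 of 20 in myeloid cells. Their EC median lay below the lower quartile of all genes counted in ECs (-0.10) and was similar in size to the early response median there (0.22). All 13 mitochondrially encoded genes had ratios above 0 in myeloid cells, with a median of 0.43 in microglial cells and 0.06 in cells of no subset. Among the lists not yet described in leukocytes, 7 of 17 T cell activation genes rose and 2 fell in myeloid cells (median 0.37), 2 of 14 TGF-beta and BMP genes rose and 1 fell (0.18), and of 9 FOXO1 target and quiescence genes only Ccnd2 rose (0.25). Of all genes counted in myeloid cells, 5.71% rose and 1.84% fell. The T cell list includes Gzmb and Ifng, whose changes in myeloid cells rested on few cells.

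**Figure D5:**
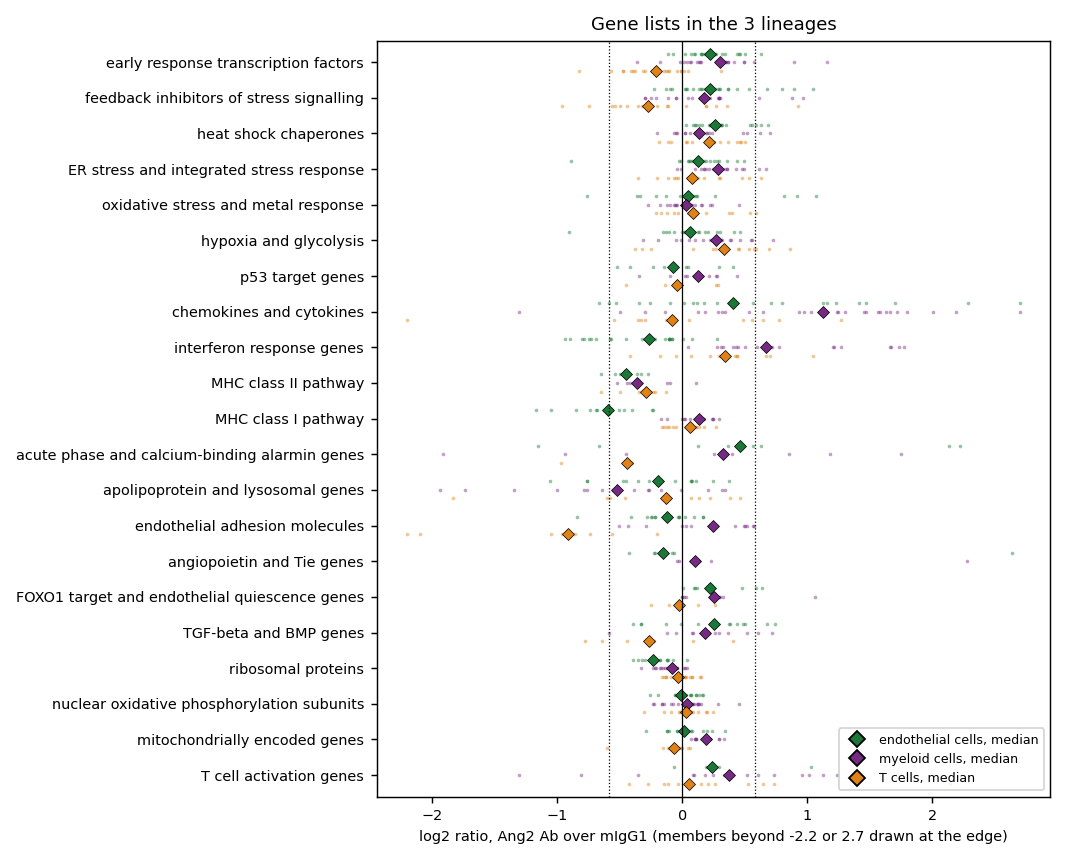
Log2 ratios of Ang2 Ab over mIgG1 for the counted genes of each of 21 lists (small points) with the list median (diamonds) in ECs, myeloid cells, and T cells, and dotted lines at 1.5-fold. The interferon and MHC class I medians of ECs lie below 0 and those of myeloid cells above 0, and the chemokine median of myeloid cells is the furthest right. The oxidative phosphorylation medians lie near 0, whereas the ribosomal median of ECs is at -0.23.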

How the data were processed

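Single-cell 3′ libraries were sequenced and the authors made the deposited UMI count matrices, 1 per library, with 27998 genes; per the submitters' processing notes, Cell Ranger 2.1.1, Seurat 2.3.4, and mm10 were used. The counts were not normalized, and barcodes under 2000 UMIs or with 10% or more mitochondrial UMIs were left out here. Lineages were assigned by the marker sums given above. The members, lists, and rules were chosen with earlier results of these data known.

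UMIs of each gene were summed per library and lineage and divided by the lineage total to give CPM. Ratios carry exact binomial 95% intervals (scipy 1.17.1, numpy 2.4.6, pandas 2.3.3, Python 3.11.15) that cover counting error only, and were tested on simulated data. Single-cell tests that treat cells as replicates were not used, because each condition was 1 library. Genes were named when they changed in all 3 lineages (up to 12 each way), in 1 lineage alone (up to 8 each way, free RNA at most 25%), or in opposite directions (up to 8), when they were list members past 1.5-fold in 2 lineages or the extremes of a list, and as checks (Angpt2, Tek); other named genes, the ISRE and GAS motifs, and the promoters of Hspb1, Hspa1b, Irgm1, Igtp, and Rsad2 were chosen after values were seen. Free RNA was taken from barcodes of 1 to 50 UMIs, scaled by Lyz2, C1qa, C1qb, and Csf1r in ECs and T cells and by Slco1a4, Kdr, Tie1, and Ramp2 in myeloid cells, a choice also made after seeing the data. No doublet caller was applied to the values given; as an alternative Scrublet (scanpy 1.11.5) scores led to the removal of 391 and 449 barcodes, whereas its own threshold marked 2.63% and 3.04%. Cebpd, Apoc2, Trac, Trbc2, Ighm, and Iglc2 were not analysed here, and some named-gene results are not reported here. In all, 12 alternatives were planned and 1 was added after seeing the data.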

Additional observations from a re-analysis of the deposited data

Results flagged for a closer look

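Of the genes past 1.5-fold in opposite directions in ECs and myeloid cells, the 8 with the largest changes and little free RNA all act in DNA replication or mitosis, and the difference between the lineages was not tested. On the log2 scale Prc1, a spindle midzone protein, was at -2.50 in ECs and 1.30 in myeloid cells, and Cenpm and Cenpf, of the kinetochore, were at -1.60 and -2.14 in ECs and 1.27 and 1.21 in myeloid cells. Kif22 was at -1.92 and 1.16, Pbk at -1.61 and 1.09, Nusap1 at -2.40 and 1.08, Tk1, the thymidine kinase of S phase, at -1.78 and 0.93, and Hells at -0.93 and 0.93.

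Barcodes of 500 to 1999 UMIs, which entered no comparison, held cells with at least 20 UMIs of S100a8 and S100a9, genes of neutrophils. There were 132 of them in mIgG1 and 359 in Ang2 Ab, of 1324 and 2679 barcodes in this range, and 146 of 2177 in Ctrl and 275 of 1227 in EC-Ang2. A minimum of 2000 UMIs per barcode therefore left out more of these cells than the 58 and 139 that it kept in mIgG1 and Ang2 Ab.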

How the results depend on the processing

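Counts are given as higher and lower in Ang2 Ab. At 2-fold, ECs had 70 and 93 genes, myeloid cells 178 and 25, T cells 14 and 33, all 3 lineages 1 and 0, ECs alone 1 and 4, myeloid cells alone 4 and 0, T cells alone 2 and 10, and 13 went opposite ways. With 300 UMIs per gene these were 153 and 148, 302 and 87, 22 and 38, 1 and 2, 3 higher in ECs alone, 13 and 0, 2 and 9, and 16, and the EC chemokine median was 0.23. With 50 UMIs per gene T cells had 272 and 368, all 3 lineages 10 and 8, T cells alone 100 and 175, 5 were lower in myeloid cells alone, and 74 went opposite ways. Thinned to 2000 UMIs per cell, 189 were lower in ECs, T cells had 46 and 38, all 3 lineages 3 and 2, T cells alone 15 and 11, 3 were higher in ECs alone, 1 was lower in myeloid cells alone, and 12 went opposite ways. The medians were then 0.18 for early response, -0.48 for interferon, and -0.71 for MHC class I in ECs and 0.74 for interferon in myeloid cells. With 4000 UMIs per barcode, 24 were higher in T cells alone, 10 lower in ECs alone, and 1 lower in myeloid cells alone, and those medians were 0.17, -0.10, -0.51, and 0.60.

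With the mean of each cell's CPM, 10 were higher in all 3 lineages and T cells alone had 64 and 40; the medians were -0.50 for interferon and -0.67 for MHC class I in ECs and 0.75 for interferon in myeloid cells, and the acute phase median of T cells reversed to 0.075. With free RNA subtracted, 2 were lower in all 3 lineages, ECs alone had 24 and 25, and 6 were lower in myeloid cells alone; the EC medians were 0.19 for chemokines, -0.43 for interferon, and -0.64 for MHC class I, and the MHC class II median of T cells (0.16) and the apolipoprotein median of ECs (0.18) reversed. Without the highest Scrublet scores, 40 were lower in T cells alone, 1 was lower in myeloid cells alone, and the EC chemokine median was 0.18. Without cycling cells, 12 went opposite ways, 10 were lower in ECs alone and 4 in myeloid cells alone, and the EC medians were -0.61 for MHC class I and 0.16 for early response. Centred on the median of all genes, 6 were lower in myeloid cells alone, and the medians were -0.63 for MHC class I in ECs and 0.066 for it and 0.61 for interferon in myeloid cells. With subsets weighted alike, 1 was lower in myeloid cells alone, and the medians were 0.21 for early response in myeloid cells and -0.35 for interferon in ECs; without neutrophils the interferon median of myeloid cells was 0.61. Without T cells that had endothelial UMIs, chosen after seeing the data, 80 were lower in T cells, T cells alone had 24 and 31, 0 were lower in myeloid cells alone, and the adhesion median of T cells reversed to 0.32.

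Over all alternatives, 254 values of these counts and medians and 415 of the further list medians moved by less than the limits set, whereas 92 and 70 moved more and 4 of the further medians reversed. Counts at other fold and UMI thresholds change by construction; the cause of the other changes was not tested. No paired analysis was possible because each condition was 1 library and no fit was made. No fit without 1 library was made, for the same reason, and T cells, with 340 and 284 cells, gave the least precise ratios.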

Other observations

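Barcodes that met none of the 3 definitions numbered 979 in mIgG1 and 746 in Ang2 Ab, and of these 339 and 295 had enough UMIs of both the endothelial and the myeloid genes. Another 47 and 41 had at least 10 UMIs of mural cell genes, and 4 and 1 at least 3 UMIs of B cell genes. Within ECs, the 9 mural markers summed to 770 and 912 CPM, with each of the 9 above its mIgG1 level in Ang2 Ab. Within myeloid cells, the 8 monocyte or macrophage markers summed to 7310 and 9393 CPM and the 9 dendritic cell markers to 174 and 334 CPM, of which 6 and 8 were above their mIgG1 levels. The 9 microglial markers, whose sums are given above, were all above theirs.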
